A study of Mus musculus with 32 samples.

Results

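The BCL2 family genes decide whether a cell under stress keeps its mitochondrial outer membrane intact. The 10 members described here were Bcl2, Bcl2l1, Bcl2l2, Mcl1, Bak1, Bid, Bcl2l11, Bad, Bmf and Hrk, taken by gene symbol from a count table of 37310 genes, and all 10 were found there. The table held RNA sequencing counts of brain tumor biopsies from 6 GMYC and 8 GTML tumors, which are 14 of the 32 samples of the series. The other samples are cell lines, which were not analysed here. The comparison asked how these genes differ between medulloblastomas driven by MYC and by MYCN. The paper describes an outlier GTML tumor with a signature like that of the SHH subgroup of medulloblastoma. The paper's own test of expression differences between the models did not include that tumor. The sample labels do not say which tumor it was, and all 8 GTML tumors were compared here.

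GMYC stands for Glt1-tTA/TRE-MYC mice and GTML for the corresponding mice with a MYCN transgene, and the genetic background of the transgenic mice was FVB/N. In both models a tetracycline-regulated transactivator (tTA) is made from the promoter of the glutamate transporter gene Glt1, so that the oncogene is turned on in cells in which this promoter is active and is turned off by doxycycline. The models therefore share the transactivator and the strain and differ in the oncogene. Each sample was labelled as a tumor biopsy, with no age, sex or treatment given. According to the methods of the study, the GTML tumors included ones generated earlier as well as new ones, the labels do not say which is which, and a difference between the models and one between the times of data generation cannot be told apart.

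BCL2 family proteins fall into groups that act on each other. The anti-apoptotic proteins (Bcl2, Bcl2l1 or BCL-XL, Bcl2l2 or BCL-W, and Mcl1) bind and hold back the effectors, of which Bak1 is a member here, and the effectors open the outer mitochondrial membrane when they are free. The BH3-only proteins (Bid, Bcl2l11 or BIM, Bad, Bmf and Hrk) carry stress signals by binding the anti-apoptotic proteins or by turning on the effectors. High MYC is known to prime cells for apoptosis through this family, and developing neurons use it to remove surplus cells.

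Promoter windows were read to show the DNA around the start sites of members that differed or were abundant. RefSeq holds 16 start sites for the 10 members (assembly GRCm38.p6), each with a window of 300 bases from 250 before the start to 50 after it. The part of the window that lies before any annotated exon is given for Hrk, the member that was lower in GTML tumors, and for Mcl1, the member with the highest level per exon length in both models. The window of Bak1 lies inside annotated exons and is not shown. The end of the Mcl1 window, after the start site, was not found in any GENCODE transcript of Mcl1, unlike the windows of the other members. The start site of Mcl1 is therefore less certain. The E-box CACGTG, the core site bound by MYC and MYCN, reads the same on both strands and would be in capitals.
Hrk, chr5:118169514-118169747, plus strand: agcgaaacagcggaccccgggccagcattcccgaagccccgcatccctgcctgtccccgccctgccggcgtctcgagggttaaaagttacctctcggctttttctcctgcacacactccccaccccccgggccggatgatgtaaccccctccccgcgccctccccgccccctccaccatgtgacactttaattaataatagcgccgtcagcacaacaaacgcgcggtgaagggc
Mcl1, chr3:95658471-95658720, plus strand: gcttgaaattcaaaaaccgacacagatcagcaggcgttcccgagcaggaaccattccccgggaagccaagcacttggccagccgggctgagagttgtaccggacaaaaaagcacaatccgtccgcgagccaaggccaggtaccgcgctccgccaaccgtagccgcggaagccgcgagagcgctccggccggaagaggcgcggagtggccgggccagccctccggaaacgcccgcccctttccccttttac
No capitals appear, because CACGTG was in 0 of the 16 windows of the members, whereas 7.15% of all 32851 windows of this length held it. This says only that these letters are absent from the windows. The full windows of Hrk and Mcl1 both had a GC content of 65.7%, and the median over all windows was 52.7%.

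Total counts per tumor lay between 6218378 and 7279811 in GMYC tumors and between 4602294 and 6317404 in GTML tumors. Levels are given as CPM, the counts of a gene relative to the total of its tumor, on library sizes scaled by TMM (trimmed mean of M values). The driver genes followed the labels. Myc fell by 4.63 on the log2 scale in GTML relative to GMYC tumors (adjusted p = 3.94e-06, edgeR's quasi-likelihood test), Mycn rose by 2.79 (adjusted p = 0.000152), and for neither gene did the models overlap. Myc was nevertheless uneven among GMYC tumors, since tumor 6 had 33.4 CPM and the next lowest 134 CPM. The paper describes the GMYC transgene as human MYC, whereas the reads were aligned to the mouse genome. The Myc counts may therefore hold only part of the transgene's reads along with those of the mouse gene, and this was not tested. The medulloblastoma markers Otx2 and Syp were present in every tumor, with at least 237 and 80.3 CPM, whereas Eomes did not exceed 3.42 CPM. Tubb3 was at 187 to 249 CPM in GMYC and at 115 to 196 CPM in GTML tumors, and fell by 0.44 (adjusted p = 0.0226, edgeR). Npr3 was uneven, at 4.503 to 67.4 CPM in GMYC and 6.32 to 176 CPM in GTML tumors, with its highest value in GTML tumor 2. GTML tumor 2 stood apart from its model, since the chi-square of its counts, divided by the degrees of freedom, was 33.7 to 61.1 against the other GTML tumors, whereas no other GTML pair exceeded 28.8. Values of Bak1 and Bcl2l1 are given with and without it. Whether GTML tumor 2 is the SHH-like outlier of the paper was not tested. The tumors also fell into 6 with over 0.3% of counts on small nucleolar RNAs (GMYC tumors 1 to 4, GTML tumors 1 and 2) and 8 with less, and counts of Y-linked genes were at least 1102 in 10 tumors and at most 16 in GTML tumors 2, 3, 5 and 8. Neither split is a label of the study.

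Of the 10 members, Bak1 was higher and Hrk was lower in GTML than in GMYC tumors, and the other 8 did not pass the test. All 10 members passed the filter on low counts. A gene was called when its adjusted p was under 0.05, and 21.2% of the 21024 genes tested were called (11.5% higher and 9.71% lower in GTML). The 2 calls among 10 members are therefore a share near that of all genes. The median log2 fold change of the members was 0.019 and that of all tested genes 0.036, and 5 of the 10 members lay below 0. At the stricter thresholds of 0.01 for the adjusted p and 1 for the absolute log2 fold change 0 members passed, against 3.22% of all genes.

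**Figure D1:**
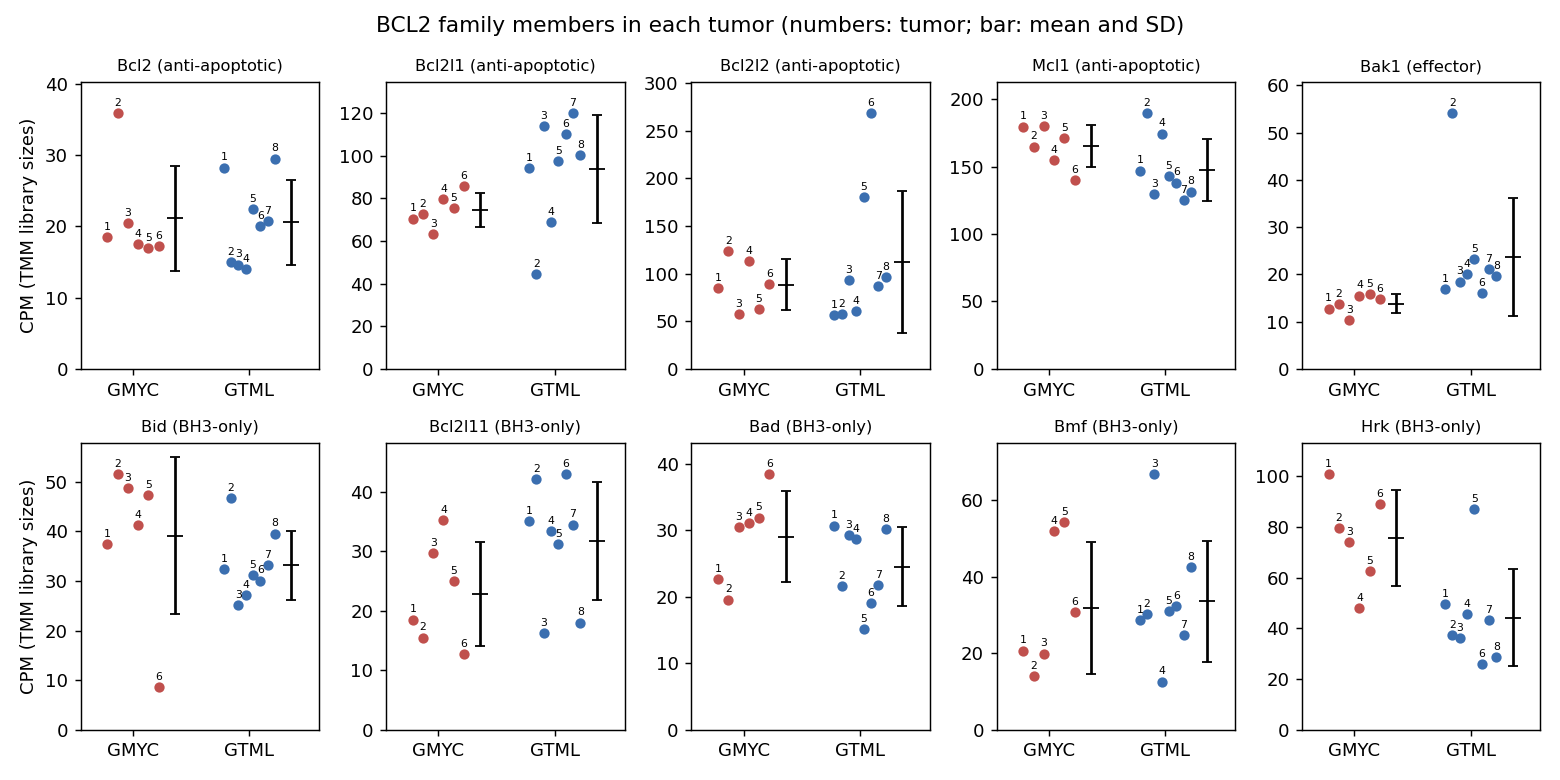
Level of each member in CPM (vertical axes, starting at 0) in the 6 GMYC tumors (red) and the 8 GTML tumors (blue), with tumor numbers beside the points and the mean and SD of each model as a black bar. Bak1 is the member whose models do not overlap, Hrk is lower in all GTML tumors but tumor 5 than in most GMYC tumors, and Bid is far lower in GMYC tumor 6 than elsewhere.

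Among the anti-apoptotic members, 0 of 4 were called in either direction by edgeR, DESeq2 or limma-voom, and 0 had an unadjusted p under 0.05 in edgeR. The same tools called 21.2%, 27.8% and 21.4% of all tested genes, and 0 of 4 is not unusual at such shares. Mcl1 encodes a short-lived protein that holds BAK and BIM in check. It was at 140 to 180 CPM in GMYC tumors (median 168) and at 125 to 190 CPM in GTML tumors (median 140). The ranges overlapped widely, and the log2 fold change was -0.16 (SE 0.11, 95% interval -0.39 to 0.06, adjusted p = 0.272, edgeR). Mcl1 also varied least between tumors, with a coefficient of variation of 9.45% in GMYC and 15.6% in GTML tumors. It had the most counts per exon base of the members, up to 0.366 in GMYC and 0.341 in GTML tumors. The counts may have a ceiling per base (see the processing section), and its part in this low spread was not tested.

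Bcl2l1, which encodes BCL-XL, was at 63.2 to 85.8 CPM in GMYC tumors (median 74.0) and at 44.4 to 120 CPM in GTML tumors (median 98.9). GTML tumors 2 and 4, at 44.4 and 68.9 CPM, were lower than the other 6 GTML tumors, all of which were above every GMYC tumor. Over all tumors Bcl2l1 did not pass the test (log2 fold change 0.33, SE 0.18, 95% interval -0.06 to 0.71, adjusted p = 0.194, edgeR). Without GTML tumor 2 it was called higher in GTML, with a log2 fold change of 0.43 (adjusted p = 0.0181, edgeR), and with limma-voom, the test of the study, 0.42 (adjusted p = 0.0218). It was not called when any other tumor was left out.

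Bcl2l2, which encodes BCL-W and is known for its part in the survival of neurons, spread most widely among GTML tumors. Its level was 57.8 to 124 CPM in GMYC tumors (median 86.9) and 56.6 to 269 CPM in GTML tumors (median 89.7). The medians were close, and GTML tumors 5 and 6, with 180 and 269 CPM, stood above all others. The log2 fold change was 0.34 with a 95% interval from -0.38 to 1.07 (adjusted p = 0.480, edgeR), and it was 0.029 without GTML tumor 6. Reads of Bcl2l2 could in part be shared with Gm20521, an overlapping gene on the same strand, which was listed at 0 in all tumors.

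Bcl2, the founding member, was at 16.9 to 35.9 CPM in GMYC tumors (median 18.02) and at 14.0 to 29.5 CPM in GTML tumors (median 20.4). GMYC tumor 2 was the highest of all, and the next GMYC tumor had 20.5 CPM. The log2 fold change was -0.037 (95% interval -0.54 to 0.46, adjusted p = 0.923, edgeR), and without GMYC tumor 2 it was 0.18. The antisense gene D630008O14Rik shares 558 exon bases with Bcl2, 6.09% of its exon length, and did not exceed 2.45 CPM in any tumor.

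Bak1, the effector that lodges in the outer mitochondrial membrane and forms pores there, was higher in GTML tumors. It was at 10.2 to 15.8 CPM in GMYC tumors (median 14.3) and at 16.1 to 54.2 CPM in GTML tumors (median 19.9), so the lowest GTML tumor (tumor 6) was just above the highest GMYC tumor (tumor 5). The models of 4.62% of all tested genes did not overlap (2.14% with GTML higher and 2.48% with GTML lower). The log2 fold change was 0.78 (SE 0.27, 95% interval 0.21 to 1.35, adjusted p = 0.0493, edgeR). GTML tumor 2 had 54.2 CPM, where the next tumor had 23.3 CPM, and without it the log2 fold change was 0.49 (SE 0.17, adjusted p = 0.0376). The call was thus kept at a smaller size without that tumor. It was also kept without GTML tumor 1 or 6, and was lost when any 1 of the other 11 tumors was left out, where the adjusted p reached 0.109 (without GMYC tumor 3). Among the 6 tumors with over 0.3% of counts on small nucleolar RNAs, whose GTML tumors are 1 and 2, the log2 fold change was 1.45 (adjusted p = 0.296), and without GTML tumor 2 it was 0.39 (adjusted p = 0.628), with the remaining GTML tumor assumed to vary like the GMYC tumors. Among the other 8 tumors it was 0.36 (adjusted p = 0.336). None of these passed.

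Exons of Bak1 share 437 bases, 18.2% of its exon length, with Ggnbp1 on the opposite strand, and whether counting used strand is not given in the sources used here. Ggnbp1 did not pass the test (log2 fold change 0.44, adjusted p = 0.186, edgeR). In GTML tumor 2, where Bak1 had its peak, Ggnbp1 was at 16.9 CPM, within the 15.9 to 37.5 CPM of the GTML tumors.

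Hrk was the called member of the 5 BH3-only genes. Its product, harakiri, is a neuronal BH3-only protein that binds BCL-XL and BCL2. Hrk was at 47.8 to 101 CPM in GMYC tumors (median 76.6) and at 25.997 to 87.1 CPM in GTML tumors (median 40.2). The models overlapped through GTML tumor 5, at 87.1 CPM, and through GTML tumor 1, at 49.4 CPM, which was above GMYC tumor 4 at 47.8 CPM. The other 6 GTML tumors were all below every GMYC tumor. Hrk fell by 0.78 on the log2 scale (SE 0.24, 95% interval -1.29 to -0.27, adjusted p = 0.0335, edgeR), which made GMYC tumors 1.72-fold higher.

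Without GTML tumor 5 the log2 fold change of Hrk was -0.99 (adjusted p = 0.00922, edgeR). The call was kept in 6 of the 14 fits that left out 1 tumor and lost in 8, namely without GMYC tumor 1, 2, 3 or 6 or GTML tumor 3, 6, 7 or 8, with an adjusted p of at most 0.0806 (without GMYC tumor 1, log2 fold change -0.67). The size was alike on both sides of the small nucleolar RNA split. It was -0.79 in the 6 tumors above 0.3% (adjusted p = 0.373; -0.59 and 0.513 without GTML tumor 2) and -0.79 in the 8 below (adjusted p = 0.181), and neither side passed the test. With counts of Y-linked genes as a covariate Hrk was at -0.90 (adjusted p = 0.0878) and Bak1 at 0.44 (adjusted p = 0.363).

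Bid, which links death receptors to the mitochondria once it is cleaved, was at 8.63 CPM in GMYC tumor 6, with 61 counts, and at 37.5 to 51.6 CPM in the other 5 GMYC tumors. GTML tumors ranged from 25.1 to 46.7 CPM (median 31.8). Bid did not pass the test over all tumors (log2 fold change -0.24, 95% interval -0.84 to 0.37, adjusted p = 0.560, edgeR), nor without GMYC tumor 6, where the log2 fold change was -0.45 (adjusted p = 0.0638). The gene Bcl2l13 on the opposite strand shares 628 exon bases with Bid, 17.7% of the exon length of Bid, and in GMYC tumor 6 it had 145 CPM, within the 139 to 172 CPM of the GMYC tumors. The low value of that tumor was therefore seen for Bid and not for its neighbour. GMYC tumor 6 was also the GMYC tumor with the lowest Myc.

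Bcl2l11, which encodes BIM and binds all anti-apoptotic members, was at 12.7 to 35.3 CPM in GMYC tumors (median 21.7) and at 16.3 to 43.1 CPM in GTML tumors (median 33.9). GTML tumors 3 and 8 lay at 16.3 and 18.03 CPM, and the other 6 at 31.2 CPM or more. The log2 fold change was 0.48 (SE 0.27, 95% interval -0.10 to 1.05, adjusted p = 0.208, edgeR). It stayed between 0.35 and 0.65 over the fits that left out 1 tumor and passed in none of them.

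Bad, whose protein is held by 14-3-3 proteins when phosphorylated, was at 19.6 to 38.5 CPM in GMYC tumors (median 30.7) and at 15.1 to 30.7 CPM in GTML tumors (median 25.2), with a log2 fold change of -0.24 (95% interval -0.67 to 0.18, adjusted p = 0.391, edgeR). Gpr137 on the opposite strand shares 524 exon bases with Bad, 20.5% of its exon length, and did not pass the test (log2 fold change 0.28, adjusted p = 0.374, edgeR). Bmf, a BH3-only protein tied to the cytoskeleton, was at 14.1 to 54.2 CPM in GMYC tumors (median 25.7) and at 12.6 to 66.9 CPM in GTML tumors (median 30.6). Its log2 fold change was 0.07 (95% interval -0.67 to 0.82, adjusted p = 0.895, edgeR). Bmf had the widest spread of the members in GMYC tumors, with a coefficient of variation of 54.0%.

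**Figure D2:**
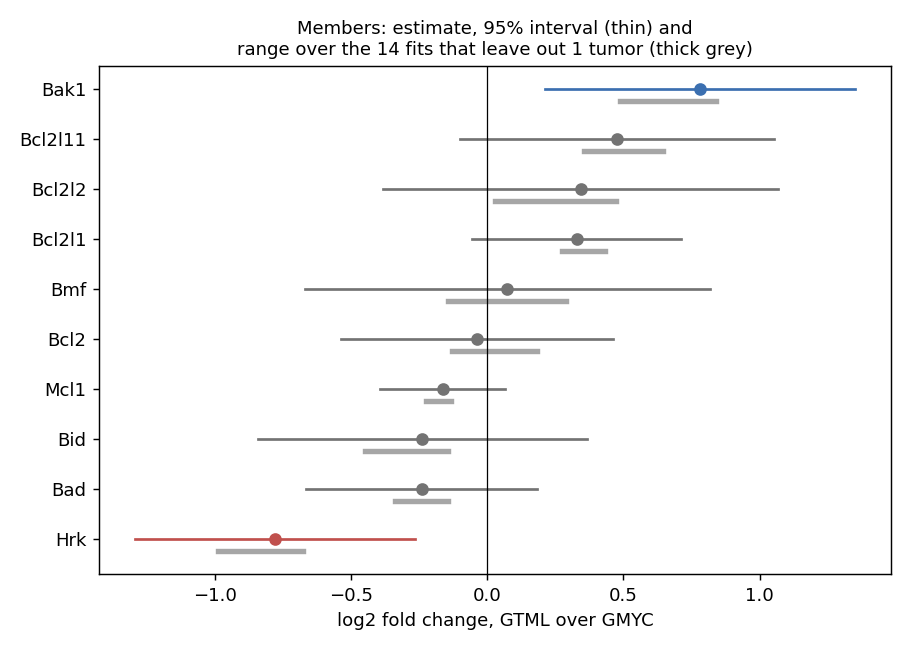
Log2 fold change of each member, GTML over GMYC (horizontal axis), as a point with its 95% interval (thin line; blue or red where adjusted p was under 0.05), and the range over the 14 fits that left out 1 tumor (thick grey line). The intervals of Bak1 (0.21 to 1.35) and Hrk (-1.29 to -0.27) leave out 0, and the other 8 contain it.

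Levels were compared between genes only per exon length, as TPM, a unit that divides counts by exon length, within each model. The order in GMYC tumors, by mean log2 TPM, was Mcl1, Bcl2l2, Bcl2l1, Hrk, Bad, Bid, Bak1, Bmf, Bcl2l11 and Bcl2. Mcl1 had a mean of 163 ± 10.97 TPM (SD, n = 6) and Bcl2 7.76 ± 2.50 TPM. Neighbours in the order were told apart in 2 of 9 pairs, where every GMYC tumor had the same order: Mcl1 above Bcl2l2 (67.2 ± 19.9 TPM), and Bmf (20.8 ± 11.6 TPM) above Bcl2l11 (9.60 ± 3.68 TPM). The other 7 pairs changed places in at least 1 tumor. Hrk, at 45.1 ± 11.2 TPM, was the highest of the BH3-only members in this order, but it was above Bad (38.7 ± 10.5 TPM) in only 4 of 6 tumors.

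In GTML tumors the order was Mcl1, Bcl2l2, Bcl2l1, Bad, Bid, Bak1, Hrk, Bmf, Bcl2l11 and Bcl2. Mcl1 was again first, with 164 ± 19.4 TPM (SD, n = 8), and Bcl2 last, with 8.61 ± 2.46 TPM. The pair told apart in all 8 tumors was Bcl2l1 (79.5 ± 24.99 TPM) above Bad (36.7 ± 8.74 TPM). Mcl1 was above Bcl2l2 (99.0 ± 68.5 TPM) in 7 of 8 tumors, with tumor 6 as the exception. Hrk was at 30.0 ± 14.2 TPM and came after Bak1 (37.3 ± 16.8 TPM) in 6 of 8 tumors. When the longest transcript replaced the exon union as the length, Bcl2l1 came before Bcl2l2 in both models and Hrk came after Bad and Bid in GMYC tumors too, so those places depend on the length used.

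**Figure D3:**
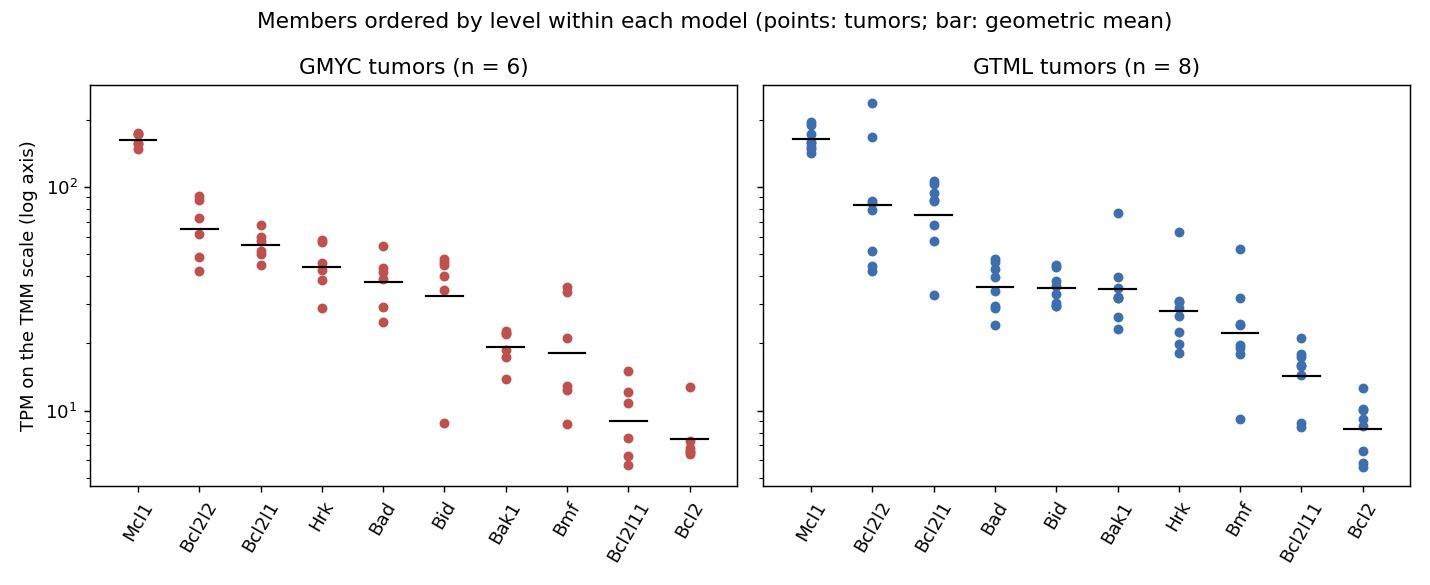
TPM of the 10 members (log axis) in GMYC tumors (left) and GTML tumors (right), ordered by mean log2 TPM, with a point per tumor and the geometric mean as a bar. Mcl1 leads with means of 163 and 164 TPM and Bcl2 is last with 7.76 and 8.61 TPM. Hrk is in the fourth place in GMYC tumors and in the seventh in GTML tumors.

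As a share of the summed TPM of the 4 anti-apoptotic members, Mcl1 made up 55.9% ± 6.37 in GMYC tumors (SD, n = 6) and 48.9% ± 12.5 in GTML tumors (SD, n = 8), with ranges of 50.2% to 64.5% and 31.9% to 69.6% that overlap. Bcl2 made up 2.63% and 2.53%. Of the summed TPM of the 5 BH3-only members, Hrk took 30.4% ± 9.17 in GMYC tumors (18.1% to 40.9%) and 20.8% ± 8.16 in GTML tumors (13.1% to 38.5%), and Bcl2l11 took 6.27% ± 2.11 and 10.9% ± 3.88. These shares overlapped between the models and were not tested. They rest on exon unions and depend on the length used. With the longest transcript Mcl1 had means of 132 TPM in GMYC and 131 TPM in GTML tumors, instead of 163 and 164 TPM. Bcl2l1 had 79.7 and 112 TPM there, instead of 55.3 and 79.5 TPM, and Hrk 38.4 and 25.1 TPM, instead of 45.1 and 30.0 TPM. Shares were not computed with that length.

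Other genes of the apoptosis pathway were read from the same fit. Of 55 listed, 52 were tested, of which 2 were higher and 9 lower in GTML tumors and 41 did not pass. By direction these are 3.85% higher, against 11.5% of all genes, and 17.3% lower, against 9.71% of all genes. All genes here include ones that are not protein-coding. In the fit on protein-coding genes only, 19.3% of 15333 were called, and shares by direction were not computed there. The median log2 fold change of the 52 genes was -0.080, against 0.036 for all genes. Among the other BCL2 family genes (13 tested of 16 listed, median -0.029), 2 were higher and 3 lower. Bax, the effector that acts beside Bak1, fell by 0.45 (71.4 ± 10.4 CPM in 6 GMYC and 52.3 ± 9.89 CPM in 8 GTML tumors, SD; adjusted p = 0.0372, edgeR), opposite in sign to Bak1. The call of Bax was lost in 7 of 14 fits that left out 1 tumor (without GMYC 1, 3, 5 or 6 or GTML 3, 5 or 6; adjusted p up to 0.0925).

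Bik, a BH3-only gene, fell by 1.03 (adjusted p = 0.0329, edgeR), with 16 to 41 counts in GMYC tumors and 6 to 19 in GTML tumors. Bcl2l13, a BCL2-like protein of the mitochondrion with a role in mitophagy, fell by 0.36 (adjusted p = 0.0181). Bcl2l15 was higher in GTML tumors, with a log2 fold change of 0.90 (adjusted p = 0.0426), as was Bcl2l10, with 2.97 (adjusted p = 0.0110). Bcl2l10 was close to absent, with 0 to 2 counts in GMYC tumors and 1 to 15 in GTML tumors. Its fitted value therefore depends on the default prior count of edgeR. Bcl2l13 and Bcl2l10 were called in all 14 fits that left out 1 tumor, Bik in 7 (not without GMYC 3, 5 or 6 or GTML 3, 5, 6 or 7) and Bcl2l15 in 4 (without GMYC 4 or GTML 1, 2 or 6).

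Of the 12 genes of the apoptosome and the caspases, which act once the mitochondrial membrane has opened, 3 were lower in GTML tumors and 0 higher, where 9.71% of all genes were lower and 11.5% higher, and the list median was -0.31 against 0.036 for all genes. Htra2, a mitochondrial protease that is released with cytochrome c, fell by 0.50 (63.7 ± 7.93 against 44.9 ± 6.71 CPM, SD, n = 6 and 8; adjusted p = 0.0140, edgeR). Cycs, which encodes cytochrome c, fell by 0.58 (adjusted p = 0.0404), and Apaf1, the scaffold that cytochrome c binds, fell by 0.43 (adjusted p = 0.0348). Htra2 was called in all 14 fits that left out 1 tumor, Apaf1 in 9 (not without GMYC 3, 4 or 6 or GTML 5 or 7) and Cycs in 6 (without GMYC 2 or 4 or GTML 1, 2, 4 or 8).

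Regulators of BCL2 proteins held 3 genes lower in GTML tumors of 14 tested (21.4%, against 9.71% of all genes) and 0 higher (against 11.5%), with a list median of -0.080. Vdac2, the outer membrane channel that binds BAK, was at 170 ± 15.1 CPM in GMYC and 112 ± 16.4 CPM in GTML tumors (SD, n = 6 and 8). It fell by 0.60 (SE 0.11, adjusted p = 0.00355, edgeR), and the models did not overlap, as in 2.48% of all genes with GTML lower, with 154 CPM as the lowest GMYC and 135 CPM as the highest GTML value. Dynll1, a dynein light chain that binds BIM, fell by 0.53 (adjusted p = 0.0200), and Ywhaz, a 14-3-3 protein of the kind that binds BAD, fell by 0.53 (adjusted p = 0.0230). Vdac2 and Dynll1 were called in all 14 fits that left out 1 tumor and Ywhaz in 13, the exception being without GMYC tumor 6 (adjusted p = 0.0531).

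No gene was called in the IAP family, which blocks caspases (6 tested), or in the death receptor arm (7 tested), by edgeR, DESeq2 or limma-voom. Of all tested genes, 21.2% were called by edgeR, 27.8% by DESeq2 and 21.4% by limma-voom. Lists this short can hold 0 calls at such shares. An unadjusted p under 0.05 was reached in edgeR by 1 and 0 genes. The smallest p in these lists belonged to Birc5, or survivin, with a log2 fold change of -0.32 (adjusted p = 0.120, edgeR), and Birc6, with 0.14 (adjusted p = 0.3002), and to Cflar, the inhibitor of caspase 8, with 0.55 (adjusted p = 0.245), and Fas, with -0.68 (adjusted p = 0.259).

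**Figure D4:**
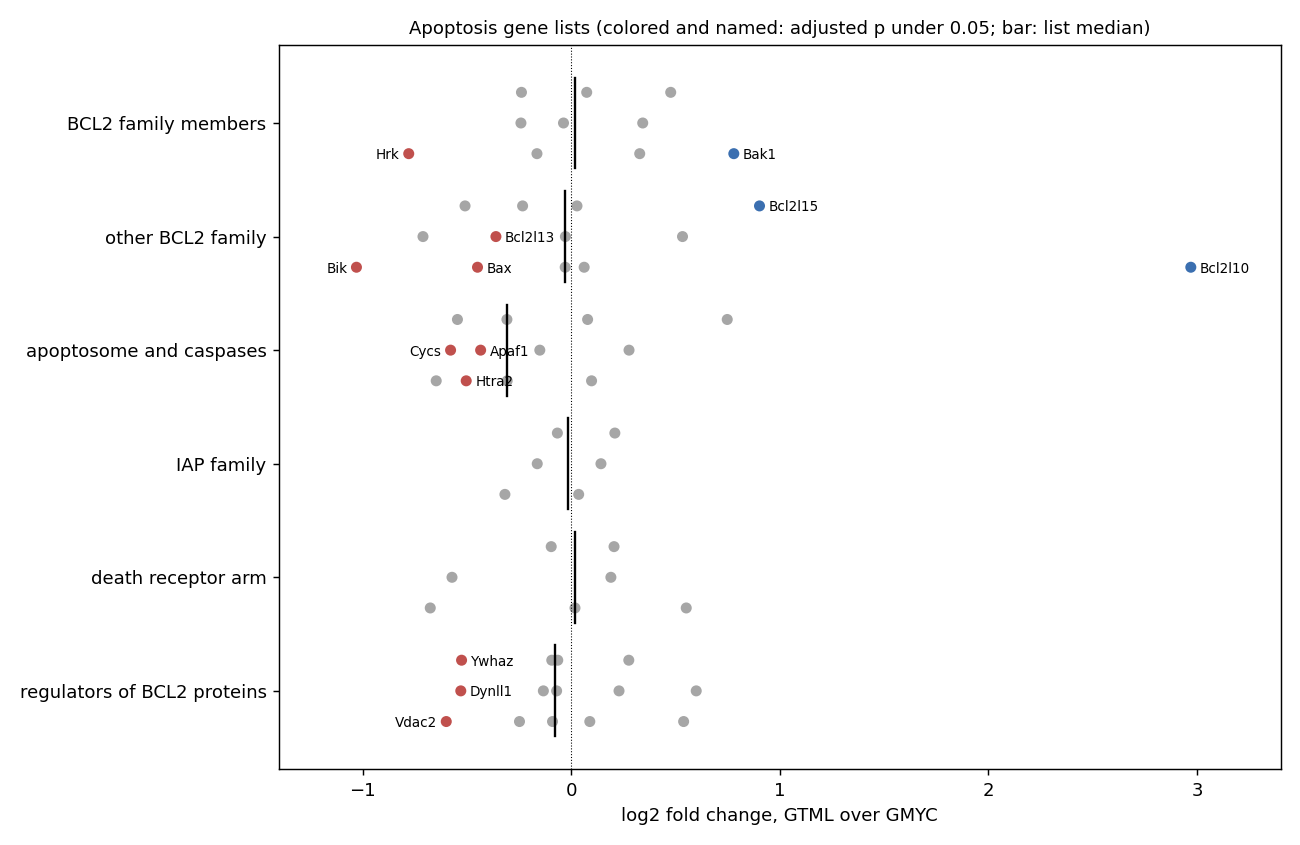
Log2 fold change, GTML over GMYC (horizontal axis), of the tested genes of each list, with a point per gene, names and colors for those with an adjusted p under 0.05 (blue higher, red lower in GTML) and the list median as a bar. The apoptosome and caspase list has the lowest median, -0.31, and the IAP and death receptor lists hold no called gene. These lists are short, and 21.2% of all tested genes were called.

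The biopsies hold cells other than tumor cells, and in bulk RNA fewer cells of a type and less RNA per cell cannot be told apart. Summed over 5 astrocyte markers, the level ran from 135 to 538 CPM in GMYC and from 37.8 to 295 CPM in GTML tumors, with medians of 361 and 171 CPM. All 5 astrocyte markers lay lower in GTML tumors, with log2 fold changes of -1.22 to -0.72, of which 0 were called and 2 had an unadjusted p under 0.05 in edgeR. The sum of 5 microglia and macrophage markers ran from 125 to 206 CPM and from 72.1 to 267 CPM, with medians of 188 and 126 CPM. Of these markers 4 lay lower in GTML tumors, and 1 of them, Cd68, was called. Of 5 red cell markers, the 4 hemoglobin genes were called lower in GTML tumors, with log2 fold changes of -2.55 to -1.78. The other marker, Alas2, lay higher (0.51, means of 35.5 and 50.8 CPM) and was not called. The sums over all 5 were 53.4 to 176 CPM and 41.6 to 134 CPM. Sums for 5 oligodendrocyte markers ran from 110 to 293 CPM in GMYC and 111 to 282 CPM in GTML (Olig2 lower, Mog higher). For 4 endothelial markers they ran from 48.9 to 138 and from 83.9 to 211 CPM (Kdr higher). For 6 lymphocyte markers they ran from 38.5 to 91.6 and from 42.7 to 172 CPM (0 called). For 5 granule neuron markers they ran from 254 to 366 and from 239 to 295 CPM (Cbln3 and Neurod1 called lower). Most of these sums was Neurod1, with means of 238 CPM in GMYC and 203 CPM in GTML tumors. Whether Neurod1 came from granule neurons or from tumor cells was not tested. Cbln1 and Rbfox3 lay higher in GTML tumors (log2 fold changes 0.21 and 0.66) and were not called. Gabra6 had medians of 0 and 0.199 CPM and did not pass the filter. Cbln3 was at 62.6 CPM in GMYC tumor 1 and at most 11.3 CPM in the other GMYC tumors. Its medians were 0.907 CPM in GMYC and 1.11 CPM in GTML tumors, so the call did not reflect a lower median. The sum of the 5 medulloblastoma markers was 628 to 757 CPM in GMYC and 527 to 769 CPM in GTML tumors, with Tubb3 called lower. No marker was at 0 in every tumor. The part of these cells in the values of Hrk, Bak1 and the other genes was not tested.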

How the data were processed

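RNA was extracted by the authors from fresh-frozen biopsies of 6 GMYC and 8 GTML tumors and sequenced with Ion Torrent chemistry, the GTML tumors in part for earlier work. The authors aligned the reads to mouse mm9 with STAR and then Bowtie, assigned them to GENCODE genes by featureCounts, and deposited raw whole-number counts. The handling of duplicates and strand is not given in the sources used here. Among all but the shortest protein-coding genes, the highest counts per exon base lay between 1.03 and 1.27 in every tumor. Such a ceiling could compress the levels and fold changes of densely covered genes, which was not tested. The fit on genes under 0.2 counts per exon base left out Mcl1 and Bcl2l2. Another 18 columns of counts carry names found in no label and were left out. Whether tumors came from separate mice is not stated for each biopsy, and p-values measure the spread between these samples.

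Symbols and exon lengths came from GENCODE M21, matched by Ensembl identifier for 32620 of 37310 genes (87.4%). Genes that exceeded a CPM of 1 in 3 or more tumors were tested with edgeR 4.0.16 in R 4.3.3 (TMM, quasi-likelihood F test, Benjamini-Hochberg adjustment over all tested genes); intervals are at 95%. Log2 CPM values, which entered only the correlations, used a prior count of 2. Log2 fold changes used the default prior count of edgeR. TPM came from exon unions on the TMM scale. Total counts limit the precision of low genes, and no pair of tumors of a model agreed within sampling noise. On simulated counts for 21024 genes edgeR called 39 of 100 genes changed by a log2 fold of 1, 75 of 100 changed by 2, and 2 unchanged genes. No other genes were changed there, a far smaller share than the 21.2% called in the tumors. The adjustment is stricter with fewer changed genes, so recovery in the tumors can differ.

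The members and gene lists were chosen with earlier results of these data known. From each list, called genes were named, up to the 4 with the smallest p in each direction, or the 2 with the smallest p where none was called; genes that overlap a member were added after their values were seen. Alternatives were DESeq2 1.42.0, limma-voom (limma 3.58.1), other scaling and filters on low counts, protein-coding genes only, a replicate block, terms or splits for small nucleolar RNA and Y-linked counts, genes under 0.2 counts per exon base, and leaving out each tumor. Figures were drawn with matplotlib 3.10.9.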

Additional observations from a re-analysis of the deposited data

Results flagged for a closer look

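A tumor was singled out when its gap to the nearest tumor, divided by the range of its model, was above the 95% critical value of Dixon's test. This was looked at for 27 genes in both models, and 7 of 54 groups were singled out. For normally distributed values chance gives about 1 in 20, or 2.7. CPM values need not be normally distributed and the genes share the same tumors, so 2.7 is only a rough mark.

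Among the members, Bcl2 was highest in GMYC tumor 2 (gap share 0.810, 35.9 CPM against 20.5 CPM in the next tumor), and without that tumor its log2 fold change went from -0.037 to 0.18. Bak1 was highest in GTML tumor 2 (0.812, 54.2 against 23.3 CPM). Bid was lowest in GMYC tumor 6 (0.670, 8.63 against 37.5 CPM). Hrk was highest in GTML tumor 5 (0.617, 87.1 against 49.4 CPM).

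Among the other genes, GMYC tumor 6 was apart for 3. Myc was lowest there (0.763, 33.4 against 134 CPM), Birc5 was highest (0.647, 112 against 74.7 CPM) and so was Ywhaz (0.644, 285 against 212 CPM). With Bid, 4 of the 7 values belong to that tumor.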

How the results depend on the processing

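The member count of 2 stayed at 2 with DESeq2, library size without TMM, DESeq2 size factors and a CPM above 5 in at least 6 tumors, was 3 with limma-voom without GTML tumor 2, and was 1 with limma-voom, without a filter, with protein-coding genes only, with a small nucleolar RNA term and with genes under 0.2 counts per exon base. It was 0 on either side of the small nucleolar RNA split, with the Y-linked covariate and at the stricter thresholds (adjusted p 0.01, absolute log2 fold change 1); leaving out 1 tumor gave 0 to 3. Unadjusted, edgeR gave 2 members with p under 0.05 for the upper side, the covariate and the block, and 0 for the lower side. The count of 11 other apoptosis genes was 7 without a filter, 6 with the small nucleolar RNA term, 0 for the upper side of the split, 3 with the Y-linked covariate, 0 at the stricter thresholds and 5 to 14 with 1 tumor left out. The 4459 calls over all genes were 2964 for protein-coding genes, 2851 with the term, 2 and 2662 for the upper and lower side of the split, 1691 with the Y-linked covariate, 676 at the stricter thresholds and 2617 to 6430 with 1 tumor left out. Samples with the same replicate number did not deviate together (correlations from -0.19 to 0.12 over numbers 1 to 6). With the number as a replicate block on tumors 1 to 6, 0 members, 0 other apoptosis genes and 251 genes were called; the same tumors with no replicate block, a fit chosen after seeing the data, gave 0, 6 and 2380. Bak1 was called in 6 and Hrk in 9 of 14 alternatives, and neither changed sign. Signs changed for genes that did not pass the test: Bcl2 was at 0.016 with the CPM filter of 5, 0.028 with limma-voom without GTML tumor 2, 0.081 with the small nucleolar RNA term, 0.23 below the split and -0.13 to 0.18 with 1 tumor left out; Bmf at -0.083 with the term, -0.29 below the split, -0.43 with the Y-linked covariate, -0.034 under 0.2 counts per exon base and -0.14 to 0.29 with 1 tumor left out; above the split Bcl2l1 was at -0.035, Bcl2l2 at -0.72 and Bad at 0.026; there, without GTML tumor 2 (added after seeing the data, 1 GTML tumor left), 0 members, 0 other apoptosis genes and 2 genes were called, and Bcl2 was at 0.30, Bcl2l1 at 0.41, Bcl2l2 at -0.73, Bad at 0.26 and Birc6 at -0.066; below it Bid was at 0.15. The cause was not tested. With the longest transcript, 1 neighbour pair was told apart in GMYC and 0 in GTML tumors, and with 1 tumor left out 2 to 4 and 0 to 2. Members with under 100 counts in a tumor, such as Bak1, carry more sampling noise. The largest standard errors of the log2 fold change were nevertheless those of Bmf (0.35) and Bcl2l2 (0.34), and that of Bak1 was 0.27.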

Other observations

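Over all 14 tumors, the protein-coding genes whose log2 CPM followed Bak1 most closely were Zap70 (Spearman's rho 0.904) and Ube2f (0.903). For Hrk they were Rab38 (0.881) and Csnk1a1 (0.873). These are the highest of all tested protein-coding genes, the tumors share their libraries between both genes of a pair, and the models differ in both Bak1 and Hrk, so the values are given as a description.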
